A study of Mus musculus with 7 samples.

Results

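Cckar, the gene of the cholecystokinin A receptor, was followed here together with 9 other neuropeptide receptor genes: Cckbr, Galr1, Sstr1, Sstr2, Npy1r, Oprd1, Oprl1, Tacr1 and Calcrl. The 10 genes are rows of a count table of 29777 genes and were picked by symbol, with the difference in Cckar between the genotypes already known. Their genotype differences are therefore given as descriptions, and the counts of calls among them support nothing. The RNA was that of GFP-positive cells, collected by sorting from the cervical dorsal root ganglia of E11.5 ICR mouse embryos. All embryos carried the Runx3-P2 allele, which expresses GFP in TrkC neurons: 3 libraries came from heterozygotes (Runx3-P2+/-) and 4 from homozygotes (Runx3-P2-/-, labelled as knockouts). No library without the allele was analysed here, although the file headers call the heterozygotes WT. The study's design text mentions pools of 4, and no label ties a library to its own litter or culture, so p-values reflect only how these libraries vary, which may be technical. Libraries are numbered within a genotype in the order of their accessions.

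Neuropeptide receptors are G protein-coupled receptors that bind short secreted peptides. Somatostatin, neuropeptide Y, galanin and opioid receptors mostly act through inhibitory G proteins, whereas cholecystokinin and tachykinin receptors act mainly through Gq and phospholipase C. Calcrl needs a partner protein of the Ramp family to reach the cell surface and to bind its peptide. In adult dorsal root ganglia these receptors and peptides are known mostly from neurons of pain, itch and temperature, and TrkC neurons are the precursors of proprioceptive neurons, which sense muscle length and tension. Runx3 is a Runt-family transcription factor of the latter.

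The labels were checked on 4 points. Total counts ran from 11184237 to 13986835 per library. Runx3 had 862, 1088 and 1087 counts in heterozygotes against 90, 148, 81 and 143 in homozygotes, which edgeR's quasi-likelihood test called lower (log2 fold change -3.22 ± 0.30, adjusted p = 0.00593). This call ended when heterozygote library 2 or 3 was left out, with edgeR adjusted p values of 0.0885 and 0.0576. All 10 sensory neuron markers in the table had counts in every library, and Ntrk3, which encodes TrkC, lay between 54.9 and 236 CPM, the count scaled to library size, with overlap between the genotypes. Leukocyte markers were higher in every homozygote library: the mean log2 CPM of the 16 listed genes was 3.13, 2.94 and -0.47 in heterozygotes against 4.56, 5.15, 7.72 and 5.47 in homozygotes, and their median log2 fold change was 4.00. DESeq2 called 12 of them higher (3.46% of all genes tested) and edgeR called none higher (0.0142% of all). An unadjusted edgeR p below 0.05 was found for 15 (12.6% of all). Their sums, 291 to 360 CPM against 725 to 4743 CPM, differ less, since Coro1a alone gave 208, 226 and 283 CPM in the heterozygotes. Heterozygote library 3 nearly lacked markers of several other cell types. Spinal cord markers summed to 33.0, 35.5 and 0.0869 CPM in heterozygotes against 88.6, 52.2, 137 and 26.6 CPM in homozygotes, with 11 of 12 at 0 in heterozygote library 3, and the 8 mesenchyme markers summed to 247, 167 and 61.1 CPM against 228, 255, 444 and 120.03 CPM. The 8 skeletal muscle markers summed to 225 CPM in homozygote library 2 and to at most 15.3 CPM elsewhere. Homozygote library 3 had the highest leukocyte sum and the lowest sensory neuron sum, 12440 CPM against 20329 to 24408 CPM in the other libraries. In bulk RNA, fewer cells of a type and less RNA per cell cannot be told apart.

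Promoter sequences are shown for 3 of the receptors measured in every library, to set the letters of the Runx core motif beside their values. RefSeq promoters (GRCm38.p6; 250 bases before to 50 after the annotated start) were at hand for 7 of the 10 genes, 9 promoters in all, and not for Cckar, Galr1 and Sstr1. The letters TGTGGT, searched on both strands, occurred in 1 of the 9 and in 16.8% of the 32851 mouse promoters of the table. The variant TGCGGT occurred in 1 of the 9, that of Cckbr, and in 6.45% of all, and 22.4% of all held either. Capitals mark TGTGGT, which in the most downstream of the 3 Oprl1 promoters lies 31 bases before the start. The Sstr2 promoter was richer in G and C (66.3%) than those of Oprl1 (49.7%) and Npy1r (51.7%). A match is only a description of letters, and its absence says nothing on whether Runx3 binds.
Oprl1, chr2:181715440-181715739, plus strand: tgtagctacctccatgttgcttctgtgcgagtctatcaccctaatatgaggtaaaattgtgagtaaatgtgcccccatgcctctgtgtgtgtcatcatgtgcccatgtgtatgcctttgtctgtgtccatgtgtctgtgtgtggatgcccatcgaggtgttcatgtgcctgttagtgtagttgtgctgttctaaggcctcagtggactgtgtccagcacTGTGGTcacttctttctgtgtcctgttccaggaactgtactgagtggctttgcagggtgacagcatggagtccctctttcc
Sstr2, chr11:113619077-113619376, plus strand: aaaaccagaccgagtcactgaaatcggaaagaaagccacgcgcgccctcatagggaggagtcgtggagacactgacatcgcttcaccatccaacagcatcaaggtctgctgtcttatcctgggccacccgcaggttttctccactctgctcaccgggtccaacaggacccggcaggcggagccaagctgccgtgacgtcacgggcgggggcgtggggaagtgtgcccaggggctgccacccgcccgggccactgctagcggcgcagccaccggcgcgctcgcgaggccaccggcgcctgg
Npy1r, chr8:66697172-66697471, plus strand: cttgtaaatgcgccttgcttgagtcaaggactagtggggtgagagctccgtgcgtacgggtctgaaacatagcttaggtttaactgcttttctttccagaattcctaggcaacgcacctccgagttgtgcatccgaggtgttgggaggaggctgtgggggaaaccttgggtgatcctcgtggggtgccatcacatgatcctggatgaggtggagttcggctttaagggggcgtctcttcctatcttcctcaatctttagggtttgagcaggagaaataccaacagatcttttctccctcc

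Cckar had the largest fitted difference of the 6 receptors that passed the count filter. Cholecystokinin A receptors bind sulfated cholecystokinin and are best known from vagal sensory neurons and the gut. The gene had 135, 133 and 72 counts in heterozygotes against 4, 0, 0 and 2 in homozygotes. On the CPM scale this was 10.5, 11.503 and 6.26 against 0.292, 0, 0 and 0.170, with means of 9.43 ± 2.79 (SD, n = 3) and 0.115 ± 0.142 (SD, n = 4). The lowest heterozygote library thus stood far above the highest homozygote library, and the homozygotes were near or below the level of 3 counts, 0.219 to 0.254 CPM in those libraries. Summed counts were 340 against 6, a ratio of 80.3 (95% exact interval 36.5 to 220.3, counting error only), and the fitted log2 fold change was -6.22 ± 0.96 (SE). It was -6.06 without heterozygote library 3 and homozygote library 3, and -7.17 without homozygote library 1, which holds 4 of the 6 homozygote counts. The leukocyte levels given above also separate the genotypes. The mean log2 CPM of the 5 proprioceptive markers was taken with Runx3, the targeted gene, among them. It was 3.94, 3.89 and 4.28 in heterozygotes against 2.76, 3.27, 2.42 and 2.84 in homozygotes. Runx3 alone was at a mean of 85.3 CPM in heterozygotes and 9.17 CPM in homozygotes. A difference in this mean of the 5 was therefore set in advance by the genotype itself, and the mean without Runx3 was not taken. The summed CPM of the 5, mostly Ntrk3, overlapped. Of these 5, 4 had negative fitted values, beside 7259 of all 14040 genes tested. Runx3 and Pvalb, which encodes parvalbumin, were lower in every homozygote library, beside 5.78% of all genes tested. Pvalb had at most 22 counts in any library. Ntrk3 and Etv1 overlapped between the genotypes. Whrn had a positive fitted value of 1.38, with 12, 8 and 14 counts in heterozygotes against 44, 43, 42 and 0 in homozygotes. Sensory neuron markers summed to 22001, 21577 and 24408 CPM in heterozygotes against 20329, 20431, 12440 and 21957 CPM in homozygotes. The part of these marker levels in the Cckar values was not tested.

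Cckar stands outside the authors' selection of changed genes. In the authors' deposited table its log2 fold change was -4.28 with a standard error of 0.54 and a statistic of -7.92. By size that statistic ranked 6 among the 19361 genes with one in the authors' deposited table, yet the p-value is listed as NA, and no gene with a larger statistic lacked a p-value. In all, 1216 of those 19361 genes have NA in place of a p-value in the authors' deposited table. The authors' deposited list of 464 genes holds none of these 1216, and none of the 10 receptors. Of the 1216, 352 passed the count filter used here, and the genotypes did not overlap in 62 of these (12.4% of all genes tested did not overlap in either direction).

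The other cholecystokinin receptor and both peptides were scarce. Cckbr, the cholecystokinin B or gastrin receptor, had 0 counts in all 7 libraries, which allows up to 0.0346 CPM over their sum. Cck itself had 1 count in heterozygote library 2 and 5 in homozygote library 1, and none elsewhere. Gast, the gastrin gene, had 7, 4 and 11 counts against 11, 2, 0 and 4. The heterozygote libraries thus held 340 Cckar counts and 1 count of Cck.

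**Figure D1:**
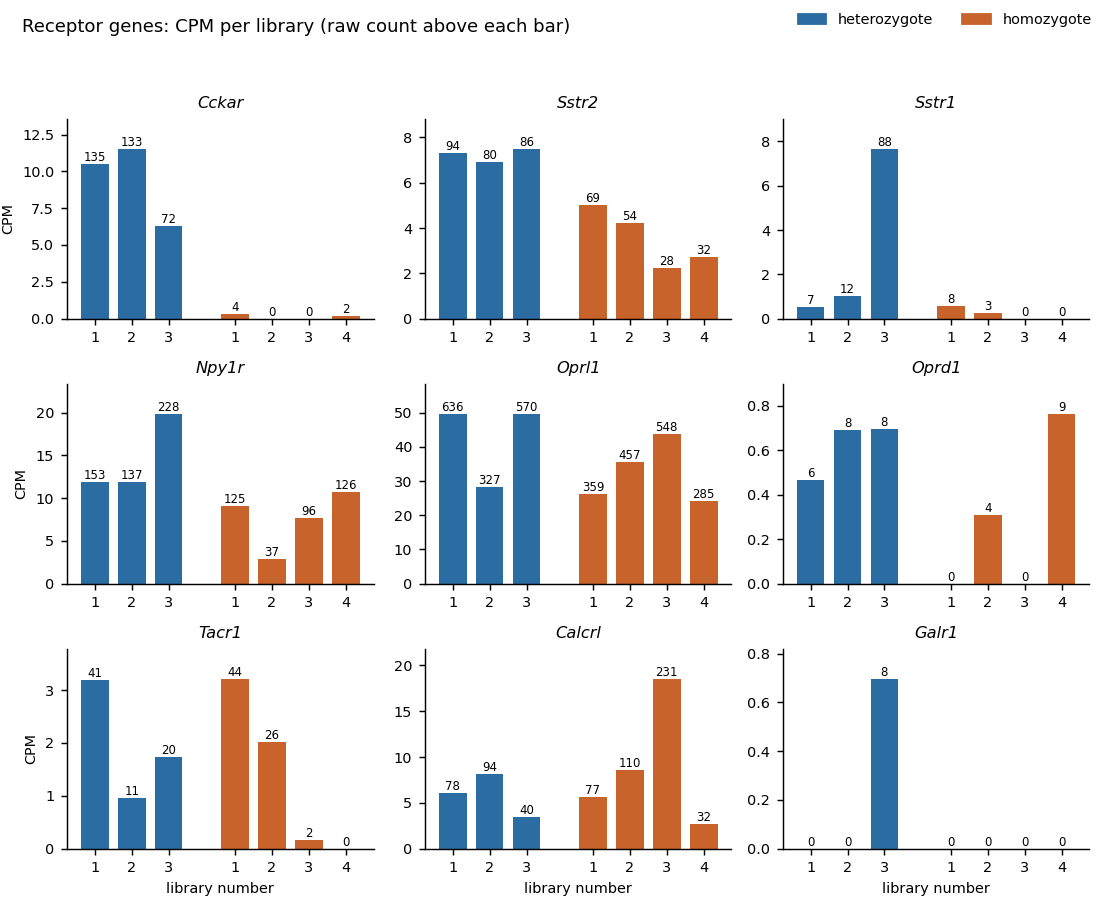
CPM per library for the 9 receptor genes with counts (bars, linear axes from 0; heterozygote libraries 1 to 3, homozygote libraries 1 to 4), with the raw count above each bar. Cckar stands at 6.26 to 11.503 CPM in heterozygotes and at most at 0.292 CPM in homozygotes, and Sstr2 and Npy1r also lack overlap, while Oprl1, Tacr1, Calcrl, Oprd1 and Sstr1 overlap.

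The somatostatin receptors Sstr1 and Sstr2 are inhibitory receptors for somatostatin and cortistatin. Sstr2 had 94, 80 and 86 counts in heterozygotes against 69, 54, 28 and 32 in homozygotes. In CPM the values were 7.33, 6.92 and 7.48 against 5.03, 4.20, 2.24 and 2.71, with means of 7.24 ± 0.289 (SD, n = 3) and 3.55 ± 1.29 (SD, n = 4). The heterozygotes agreed closely and every homozygote lay below them, at a fitted log2 fold change of -1.03 ± 0.47 (SE). The GENCODE M21 annotation places Slc39a11 across Sstr2 on the opposite strand. Whether their exons share bases was not checked, and no source used here gives the strand setting of the counting. Whether any Slc39a11 reads were counted for Sstr2 is therefore not known. Sstr1 had 7, 12 and 88 counts against 8, 3, 0 and 0. One library, heterozygote 3, thus held 88 of its 118 counts, the other values overlapped, and the gene did not pass the count filter.

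Npy1r, the Y1 receptor of neuropeptide Y, had 153, 137 and 228 counts in heterozygotes against 125, 37, 96 and 126 in homozygotes. The CPM values were 11.9, 11.8 and 19.8 against 9.12, 2.88, 7.69 and 10.7, with means of 14.5 ± 4.58 (SD, n = 3) and 7.59 ± 3.37 (SD, n = 4). The groups lay side by side without overlap, since the lowest heterozygote and the highest homozygote differed by about 1 CPM. The fitted log2 fold change was -0.94 ± 0.47 (SE). Galr1, an inhibitory galanin receptor, had 8 counts in heterozygote library 3 and 0 in the other 6 libraries. Galr2, another galanin receptor, was easier to measure, at 99, 62 and 48 counts against 77, 21, 21 and 25, and its groups overlapped.

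Oprl1, the nociceptin receptor, had the most counts of the 10 and overlapped between the genotypes. Its counts were 636, 327 and 570 in heterozygotes against 359, 457, 548 and 285 in homozygotes, or 42.5 ± 12.3 CPM (SD, n = 3) and 32.4 ± 9.11 CPM (SD, n = 4). The fitted log2 fold change of -0.39 ± 0.30 (SE) was close to its error. Oprd1, the delta opioid receptor, which binds enkephalins, had 6, 8 and 8 counts against 0, 4, 0 and 9 and did not pass the count filter.

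Tacr1, the substance P receptor, varied widely within both genotypes. It had 41, 11 and 20 counts in heterozygotes against 44, 26, 2 and 0 in homozygotes, with means of 1.96 ± 1.14 CPM (SD, n = 3) and 1.35 ± 1.54 CPM (SD, n = 4). Homozygote libraries 3 and 4 were low and homozygote library 1 was as high as any heterozygote. Its fitted log2 fold change of -0.54 ± 1.26 (SE) ranged from -1.40 to 0.0185 as single libraries were left out.

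Calcrl, the calcitonin receptor-like receptor, was the one gene of the 6 that passed the filter with a positive fitted value. Its counts were 78, 94 and 40 in heterozygotes against 77, 110, 231 and 32 in homozygotes, or 5.90 ± 2.33 CPM (SD, n = 3) and 8.85 ± 6.87 CPM (SD, n = 4). Both the highest and the lowest library were homozygotes. The fitted log2 fold change of 0.58 ± 0.63 (SE) turned to -0.0661 without homozygote library 3 and to -0.33 without heterozygote library 3 and homozygote library 3. Calcrl is widely known from endothelium. The 12 endothelial markers summed to between 5.07 and 10.5 CPM in the heterozygotes and to 21.3, 6.61, 53.5 and 15.9 CPM in the homozygotes, highest in the same homozygote library 3. Each library had 4 to 8 of the 12 at 0, with Cldn5, Sox17 and Sox18 at 0 in all 7, and Cdh5 and Kdr had at most 4 and 9 counts. The 3 that passed the filter, Pecam1, Egfl7 and Esam, each peaked in homozygote library 3, at 33.8, 12.02 and 4.25 CPM. Pecam1 thus gave most of the 53.5 CPM there. Of those below the filter, Tek had 3, 4 and 2 counts in heterozygotes and 0 in every homozygote library. Cdh5, Kdr and Emcn were highest in a heterozygote library, and Tie1 and Flt1 in a homozygote library. The leukocyte sum was also highest in homozygote library 3, at 4743 CPM. The part of endothelial cells or leukocytes in the Calcrl values was not tested.

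Which receptor Calcrl forms depends on its partner: with Ramp1 it is the CGRP receptor and with Ramp2 or Ramp3 an adrenomedullin receptor. Ramp3 had 77, 114 and 128 counts in heterozygotes against 160, 84, 106 and 106 in homozygotes, 8.997 ± 2.67 CPM (SD, n = 3) and 8.92 ± 2.12 CPM (SD, n = 4). Ramp1 was at 0 in all heterozygote libraries against 8, 6, 25 and 1 counts in homozygotes, and Ramp2 had 0, 3 and 1 against 4, 10, 10 and 1. So Ramp3 was the one partner gene measured in every library, and Ramp1 was again highest in homozygote library 3. Crcp, a small protein named as a component of the CGRP receptor, was at 147 ± 19.6 CPM (SD, n = 3) and 127 ± 22.6 CPM (SD, n = 4).

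Of the 10 receptors, 6 passed the count filter: Cckar, Sstr2, Npy1r, Oprl1, Tacr1 and Calcrl. By edgeR's quasi-likelihood test none of the 6 was called, beside 0.0499% of all 14040 genes tested (0.0356% lower), and 1, Cckar, had an unadjusted p below 0.05, beside 12.6% of all. DESeq2 called 1, again Cckar, beside 4.77% of all (1.31% lower). Homozygote libraries were all lower than heterozygote libraries for 3 of the 6 (Cckar, Sstr2 and Npy1r), beside 5.78% of all genes tested, and all higher for none, beside 6.6%. The median log2 fold change of the 6 was -0.74, beside -0.0177 over all genes tested. The genes were chosen with this comparison known, and nothing is read from these counts.

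Scaled to the exon length of each gene, Oprl1 led the 10 receptors in the heterozygotes at 11.3 ± 3.28 CPM per kilobase (SD, n = 3). Npy1r followed at 4.21 ± 1.33, Sstr2 at 3.38 ± 0.135, Cckar at 2.56 ± 0.757, Sstr1 at 1.504 ± 1.94 and Calcrl at 1.21 ± 0.478 CPM per kilobase. Tacr1 (0.302 ± 0.176), Oprd1 (0.154 ± 0.0325), Galr1 and Cckbr came last. The libraries of Oprl1 lay above those of Npy1r, those of Sstr2 above those of Cckar, and those of Calcrl above those of Tacr1, whereas Npy1r and Sstr2, Cckar and Sstr1, Sstr1 and Calcrl, and Tacr1 and Oprd1 overlapped. Among 81 peptide receptor genes with an exon length, ranked by mean level in the heterozygotes, Oprl1 was 2, behind Ednrb, the endothelin B receptor. Cckar ranked 10 there and 41 in the homozygotes, and Oprl1 kept rank 2. Exon lengths are those of GENCODE M21, not of the authors' annotation.

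**Figure D2:**
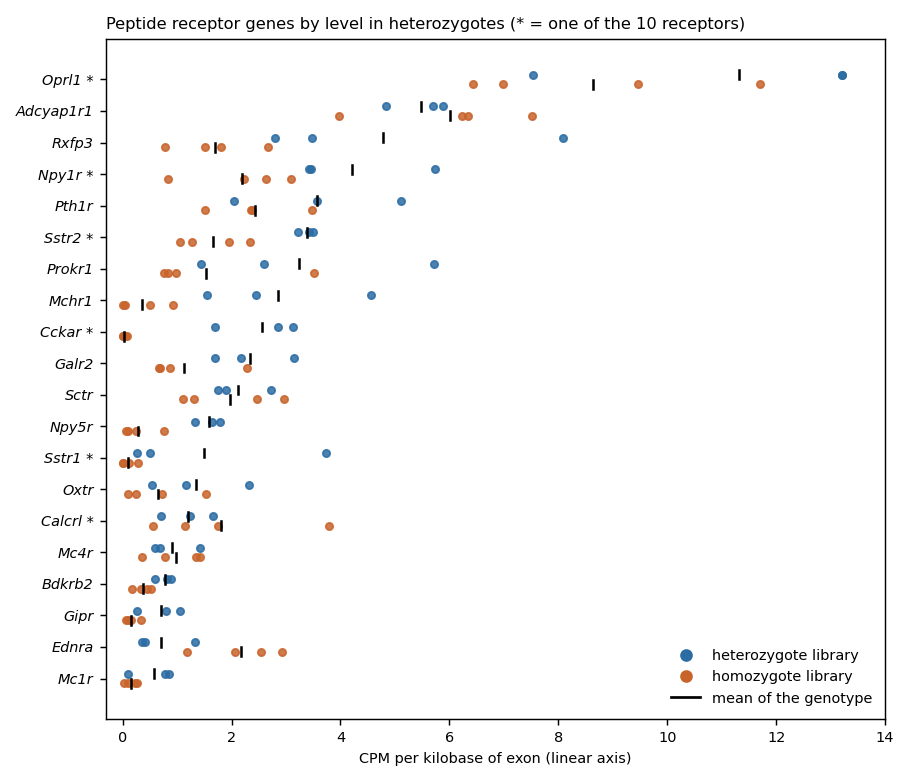
Level per library in CPM per kilobase of exon (linear axis) for the 20 peptide receptor genes next after Ednrb by mean level in heterozygotes; dots are libraries, black ticks the mean of each genotype, and a star marks the 10 receptors. Oprl1 lies at the top in both genotypes, and the homozygote dots of Cckar sit at or near 0 (mean 0.0313).

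A wider list of 65 further neuropeptide receptors, written out by family, had 63 genes in the table, 23 of them with 0 counts in every library. Only 17 passed the count filter, and none was called by edgeR (0.0499% of all genes), while DESeq2 called 1, Mc5r, as higher (3.46% of all genes, and 4.77% in either direction). Of the 17, 5 had an unadjusted p below 0.05 (12.6% of all genes), named here after their values were seen. Npy5r, another neuropeptide Y receptor, had 54, 53 and 39 counts against 2, 8, 3 and 23. Mchr1, a receptor of melanin-concentrating hormone, had 69, 39 and 115 against 15, 26, 0 and 1. Rxfp3, the relaxin-3 receptor, was at 20.4 ± 12.3 CPM (SD, n = 3) and 7.25 ± 3.34 CPM (SD, n = 4), and Gipr, the receptor of the gut hormone GIP, at 2.47 ± 1.38 and 0.570 ± 0.412 CPM. Mc5r, a melanocortin receptor, rose by DESeq2 (log2 fold change 5.61, adjusted p = 0.00406), with 3, 0 and 0 counts against 106, 5, 53 and 37. Its edgeR adjusted p was 0.151.

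The most abundant of that list was Adcyap1r1, the PACAP receptor, at 36.1 ± 3.68 CPM (SD, n = 3) in the heterozygotes and 39.7 ± 9.78 CPM (SD, n = 4) in the homozygotes, with 0.14 ± 0.25 (SE) as log2 fold change. Prokr1, a prokineticin receptor (-1.09 ± 0.66), Pth1r, the parathyroid hormone receptor (-0.56 ± 0.45), Oxtr, the oxytocin receptor (-1.03 ± 0.85), and Sctr, the secretin receptor (-0.11 ± 0.56), did not pass the test either (log2 fold change ± SE, edgeR). Leaving out heterozygote library 3 gave -0.39 for Prokr1, and leaving out homozygote library 1 gave -1.90. For Oxtr the value was -0.38 with heterozygote library 2 left out and -1.88 with homozygote library 2 left out. Of 9 receptors for vasoactive peptides, 3 passed the filter. None of the 3 was called by edgeR (0.0499% of all genes) or DESeq2 (4.77% of all genes). Ednrb, known from neural crest, was at 745 ± 234 CPM (SD, n = 3) and 579 ± 211 CPM (SD, n = 4). Ednra, the endothelin A receptor, was at 1.64 ± 0.58 (SE) and Bdkrb2, a bradykinin receptor, at -1.06 ± 0.69 (SE) as log2 fold change. The unadjusted edgeR p was below 0.05 for Ednra alone of the 3 (12.6% of all genes). The Ednra value was 2.53 without heterozygote library 3.

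**Figure D3:**
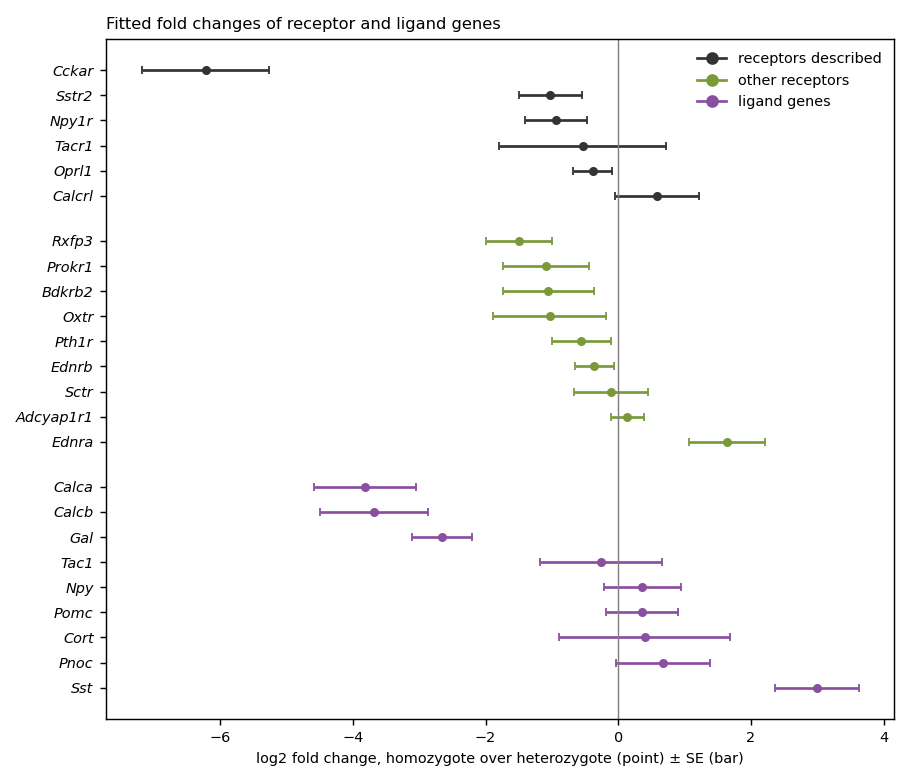
Fitted log2 fold change of homozygotes over heterozygotes (points) with its standard error (bars) for the 6 receptors that passed the filter (black), the most abundant other peptide receptors (green) and the 9 ligand genes that passed it (purple). Cckar at -6.22 lies furthest from 0, and Sst at 2.99 lies furthest to the right.

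Among the genes of the peptides that bind these receptors, Gal, Calca and Calcb fell and Sst rose by DESeq2, but none passed edgeR's test. Of 20 ligand genes, 16 had counts and 9 passed the filter. The edgeR test called none (0.0499% of all genes), and 4 were under an unadjusted p of 0.05 (12.6% of all genes). These same 4 were called by DESeq2: Gal, Calca and Calcb lower (1.31% of all genes were called lower by DESeq2) and Sst higher (3.46% were called higher). The authors' deposited list of 464 genes, beside 19361 with a fold change in their table, also holds these 4. Gal, the galanin gene, had 473, 589 and 1339 counts against 251, 93, 92 and 121, at -2.65 ± 0.46 on the log2 scale (SE; adjusted p = 0.0634, edgeR). Sst, the somatostatin gene, had 258, 255 and 62 counts against 1079, 3274, 1502 and 612, at 2.99 ± 0.63 (SE; adjusted p = 0.11, edgeR). Without heterozygote library 3 the Gal value was -2.01, and without homozygote library 2 the Sst value was 2.40. The groups did not overlap in either gene, beside 12.4% of all genes tested without overlap in either direction. Heterozygote library 3, which also nearly lacked spinal cord markers, held both the highest Gal and the lowest Sst value. Leukocyte marker levels separate the genotypes as well, and the part of these other cells in the ligand values was not tested.

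Calca and Calcb, which encode alpha and beta CGRP, the peptides of the Calcrl and Ramp1 receptor, had log2 fold changes of -3.82 ± 0.77 (SE; adjusted p = 0.0971, edgeR) and -3.68 ± 0.81 (SE; adjusted p = 0.126, edgeR). Calca had 88, 100 and 325 counts against 4, 7, 28 and 12, and Calcb 586, 405 and 879 against 15, 155, 11 and 27. Leaving out heterozygote library 3 gave -2.90 for Calca, leaving out homozygote library 3 gave -4.55, and the Calcb value was -5.20 without homozygote library 2, the one such fit in which edgeR called it (adjusted p = 0.0123). Their sequences were not compared here, and whether any reads were shared between them was not checked.

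The other ligands that passed the filter did not pass the test. Npy was at 15.7 ± 1.97 CPM (SD, n = 3) in the heterozygotes and 20.1 ± 15.3 CPM (SD, n = 4) in the homozygotes. Pomc, the opioid and melanocortin precursor, was at 4.30 ± 0.698 and 5.53 ± 2.58 CPM, and Pnoc, the nociceptin precursor, at 6.64 ± 3.90 and 10.6 ± 9.97 CPM. Tac1, which encodes substance P, was at 7.19 ± 7.45 and 5.995 ± 4.73 CPM, and Cort, cortistatin, at 0.665 ± 0.280 and 0.878 ± 1.01 CPM. In each of these 5 the spread within a genotype covered the difference, and the genotypes overlapped. Penk, the enkephalin precursor, had 5, 0 and 0 counts against 0, 8, 26 and 5, and Pdyn, the dynorphin precursor, had 7 in homozygote library 3 alone.

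**Figure D4:**
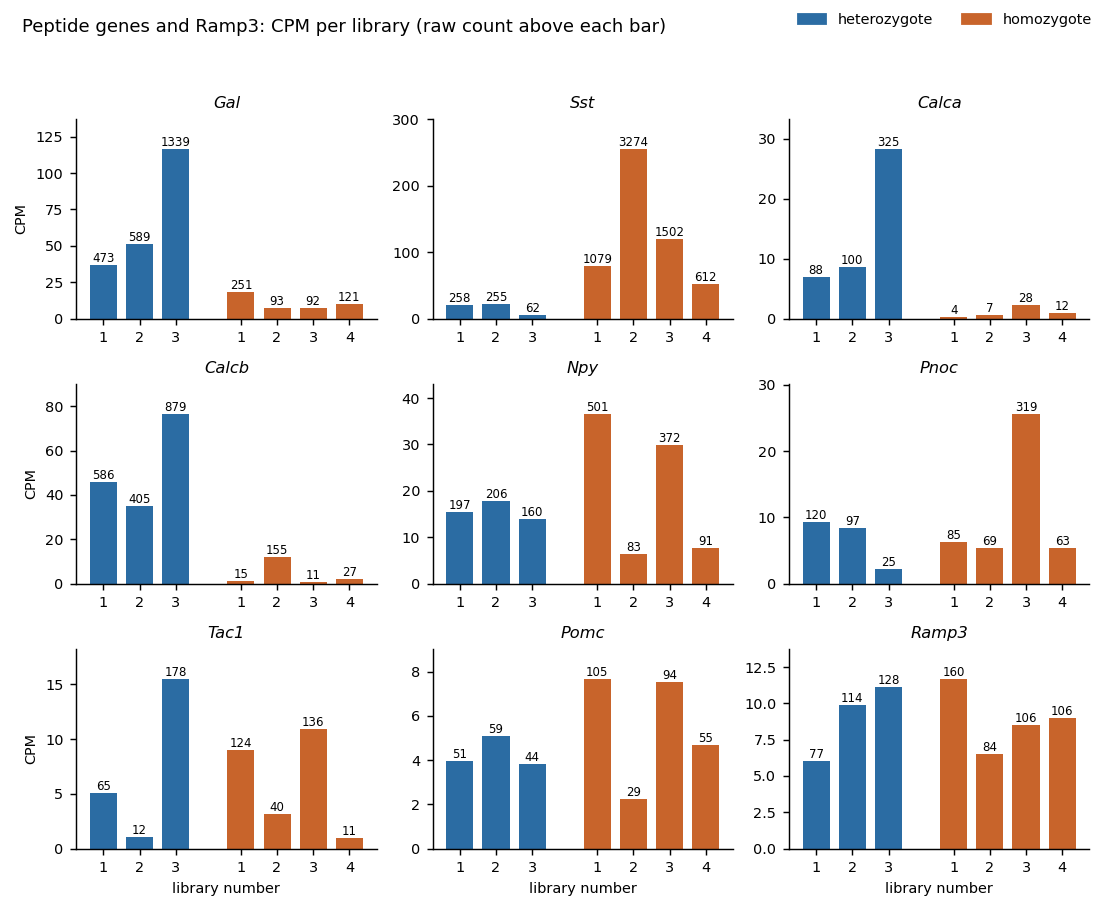
CPM per library (bars, linear axes from 0) for 8 peptide genes and Ramp3, with raw counts above the bars. Gal, Calca and Calcb are lower in every homozygote library than in any heterozygote library and Sst is higher, whereas Npy, Pnoc, Tac1, Pomc and Ramp3 overlap.

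Genes for peptide processing and storage showed 0 of 10 called by edgeR (0.0499% of all genes), 1 at an unadjusted p below 0.05 (12.6% of all genes) and 1 lower by DESeq2 (1.31% of all genes), Pam in both cases. Pam, the enzyme that amidates galanin, CGRP and other peptides, had 492, 698 and 1043 counts against 316, 315, 452 and 326. Scg5 (-0.0439 ± 0.16), a chaperone of a peptide convertase, Cpe (0.018 ± 0.27), a carboxypeptidase, and Scg3 (-0.16 ± 0.21), a granule protein, differed by less than their standard errors on the log2 scale (± SE). Of 21 genes for coupling and desensitization, 20 passed the filter and 1 rose by edgeR (0.0142% of all genes rose): Gna14, a Gq-class alpha subunit, with 1, 0 and 0 counts against 150, 55, 126 and 64 (adjusted p = 0.0403, edgeR). That call ended in each fit without 1 library other than homozygote library 3 (adjusted p up to 0.242, edgeR). Gnaq (-0.23 ± 0.23), Gnas (-0.0563 ± 0.24) and Gnao1 (-0.55 ± 0.24), alpha subunits of the Gq, Gs and Go classes, were not called by edgeR.

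The genes whose log2 CPM over the 7 libraries was most like that of Cckar, among 11818 candidates, were Adamts17, a secreted protease (r = 0.995), Pcdh15, a cadherin-family adhesion protein (r = 0.98), Fam19a4, a chemokine-like protein (r = 0.978), Slco2a1, a prostaglandin transporter (r = 0.977), and Cryba1, a crystallin (r = 0.975). These likenesses rest on the same split of 3 and 4 libraries. Slco2a1 had 47, 61 and 52 counts in the heterozygotes and 0 in each homozygote, and Adamts17 had 109, 111 and 86 against 53, 37, 32 and 37. The genes most like Calcrl were Gmppa (r = 0.987), Hist1h1a (r = 0.972), B4galt4 (r = 0.971), Itpr1 (r = 0.962) and Sclt1 (r = 0.962). Itpr1, an intracellular calcium channel, had 33, 35 and 17 counts against 26, 83, 311 and 10, and like Calcrl it peaked in homozygote library 3.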

How the data were processed

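Raw reads per gene were counted and deposited by the authors for 7 libraries of amplified cDNA. The submitters' processing notes list TopHat 1.4.0, HTSeq, DESeq2 1.2.8 and the build mm9 but give none of them a step. For annotation and strand, nothing is stated in the sources at hand. The deposited normalized reads, a signal equal to the count divided by 1 factor per library, were not used. The authors' log2 fold changes, statistics (a score) and p-values were deposited as heterozygote over homozygote and are quoted with the sign turned, as homozygote over heterozygote.

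A count filter (filterByExpr in edgeR, minimum count 10 and minimum total 15) left 14040 of 29777 genes. The minimum count is applied as CPM and must be reached in a number of libraries set by the smaller group. Libraries were scaled by TMM, and genotypes were compared with the quasi-likelihood test of edgeR 4.0.16 (R 4.3.3, default quasi-dispersion, two-sided) with Benjamini-Hochberg adjustment over all 14040 genes and a threshold of 0.05. Standard errors were taken as the absolute log2 fold change over the root of the F statistic. CPM is the count scaled to effective library size, and log2 CPM used a prior count of 2. DESeq2 1.42.0, without independent filtering, was an alternative, with the others given in the closing section. Exact intervals (95%) and the limit of 3 counts cover counting error only. The members and gene lists were chosen with earlier results of these data known.

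Genes to name were set by a rule: all 10 receptors, Runx3, Ramp1, Ramp2, Ramp3, Crcp, every ligand gene that passed the filter, the called and most abundant genes of each other list, at most the 2 most abundant genes of a marker list, and the 5 genes most like Cckar and most like Calcrl at a mean log2 CPM of at least 1, by Pearson correlation, without predicted models. Libraries of a genotype were compared for duplicates, and none matched within counting error (chi-square over its degrees of freedom, 29.1 to 72.0). Cckbr, Galr1, Sstr1 and Oprd1 fell under the filter and have counts only. Names outside the rule (Ntrk3, Etv1, Whrn, Sox18, Sox17, Cldn5, Cdh5, Kdr, Tek, Emcn, Tie1, Flt1, Egfl7, Esam, Pvalb, Penk, Pdyn, Cck, Gast, Pam, Pecam1, Galr2, Npy5r, Mchr1, Gipr and Mc5r) were added after their values were seen.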

Additional observations from a re-analysis of the deposited data

Results flagged for a closer look

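Among the 36 genes with varying values checked in the 4 homozygote libraries, 3 had 1 library far from the rest, and chance alone gives this in about 1 of 20 groups. Pnoc was at 25.6 CPM in homozygote library 3 against 5.34 to 6.20 CPM in the others. Calcb was at 12.1 CPM in homozygote library 2 against 0.881 to 2.29 CPM. Prokr1 was at 14.9 CPM in homozygote library 1 against 3.22 to 4.17 CPM.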

How the results depend on the processing

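No paired analysis was possible because the labels give no replicate numbers, only dates. The log2 fold change of Cckar kept its sign in all 13 alternatives, from -7.17 to -5.83 over left-out libraries. Over all genes, 7 were called by edgeR, 668 by DESeq2, 80 with no count filter, 61 with the adjusted quasi-dispersion, 3 with the label date as a covariate and 12 without both libraries 3, and leaving out 1 library gave from 1 (without heterozygote library 2 or 3) to 27 (without homozygote library 3). The number of ligand genes called, 0 by edgeR, was 4 with DESeq2, 3 with no count filter and 3 with the adjusted quasi-dispersion, and from 0 to 1 over left-out libraries (Calcb, without homozygote library 2). DESeq2 called 1 of the other neuropeptide receptors. The single call among the coupling genes, Gna14, was lost (0 called) with the adjusted quasi-dispersion, with the date as a covariate and without both libraries 3, and 0 to 1 were called over left-out libraries. The title and the source name of heterozygote library 1 give different months, and the values with the date as a covariate rest on the source name. The cause of these changes was not tested.

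Signs turned for genes with small fitted values. Without both libraries 3 the log2 fold change was -0.65 for Pnoc, 0.51 for Tac1, 0.31 for Sctr, 0.20 for Ramp3, 0.13 for Scg5, -0.0999 for Cpe, 0.0159 for Scg3 and 0.0318 for Gnaq. Ramp3 was at 0.00357 with DESeq2, 0.00294 with DESeq2 size factors in edgeR, 0.00568 with the adjusted quasi-dispersion and 0.0312 with the date covariate. Over left-out libraries the values ran from -0.0851 to 0.66 for Npy, -0.24 to 1.02 for Pnoc, -0.77 to 0.98 for Tac1, -0.36 to 0.13 for Sctr, -0.22 to 0.18 for Ramp3, -0.13 to 0.0553 for Scg5, -0.14 to 0.43 for Cpe and -0.22 to 0.34 for Gnas. At 11184237 to 13986835 counts per library, Galr1, Oprd1 and Cckbr are too scarce for a comparison.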

Other observations

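Npy1r and Npy5r, both receptors of neuropeptide Y, are neighbours on chromosome 8, on opposite strands, with 0 protein-coding genes annotated between them (GENCODE M21). In CPM, Npy5r was at 4.21, 4.58 and 3.39 in heterozygotes against 0.146, 0.622, 0.240 and 1.95 in homozygotes. All homozygote libraries were thus lower for both genes, as they were for 5.78% of all genes tested. The homozygote library lowest in Npy1r (library 2) was not the one lowest in Npy5r (library 1), and library 4 was the highest homozygote for both. The pair was picked after these values were seen.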
